A study of Arabidopsis thaliana with 30 samples.

Results

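Cysteine-rich receptor-like kinases (CRKs) are plant membrane proteins, and 38 of their genes were followed here across 30 RNA sequencing libraries of Arabidopsis thaliana. The 38 loci were taken as a fixed list of family identifiers out of the 68575 deposited identifiers. Their values were not used to pick loci, but earlier results of these data were known when the list was chosen. All 38 matched the TAIR10.1 gene table of RefSeq and all 38 were among the 21100 genes tested. Most bear the symbol CRK and a number there, and AT4G23250 bears EMB1290. Of the 38 genes, 34 lie on chromosome 4, and 19 of these fall in 1 tandem run of neighbouring loci from CRK5 (AT4G23130) to CRK24 (AT4G23320).

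The seedlings were the wild type Col-0 or Δlinda, a mutant that the series names for the noncoding RNA LINDA, 14 days old and kept at 10 h of light per day. Zeocin groups stood in liquid medium with 80 µg/ml Zeocin, a drug that breaks both DNA strands, and mock groups are their controls. The treatment note words mock as the medium that held Zeocin, whereas the titles, treatment tags and design text name mock as the control; the latter are followed here, and every value for mock or Zeocin rests on them. UV-C groups received 2 kJ of UV-C, which forms pyrimidine dimers, and normal light groups are their controls. Zeocin, mock and UV-C samples were taken at 3 h, and no harvest time is stated for normal light in the sample titles. Mock Col-0, Zeocin Δlinda and all 4 light groups hold 4 libraries, and mock Δlinda and Zeocin Col-0 hold 3. The library mock Col-0 replicate 1 carries the mutant in its genotype tag and Col-0 in its title, and it was grouped by title.

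A CRK has an extracellular part with copies of the DUF26 domain, in which conserved cysteines sit at fixed spacing, then a membrane-spanning stretch and a cytoplasmic kinase. The family is known in leaves for transcripts that rise with pathogens, salicylic acid, ozone and reactive oxygen. Several members act beside pattern receptors in immune signalling, and WRKY transcription factors, which bind the W box in promoters, are among the regulators of such genes.

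The DUF26 signature is shown for members whose values are described below, since it is the feature that names the family. Each line gives the codons of the first C, 8 residues, C, 2 residues, C match in the longest coding sequence of TAIR10.1, 5′ to 3′ on the coding strand, with the cysteine codons in capitals.
CRK36: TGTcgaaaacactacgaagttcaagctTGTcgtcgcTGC
CRK32: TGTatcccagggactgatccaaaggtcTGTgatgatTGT
CRK6: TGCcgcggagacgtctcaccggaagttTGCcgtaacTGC
CRK13: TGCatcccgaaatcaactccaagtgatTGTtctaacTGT
CRK25: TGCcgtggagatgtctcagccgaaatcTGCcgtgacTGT
CRK42: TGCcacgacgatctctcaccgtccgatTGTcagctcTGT
The search fixes the places of the cysteines, and the codons between them differ. A script found 2 signatures in 35 of the 38 proteins, 4 in EMB1290, 3 in CRK23 and 1 in CRK24.

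The promoters of the 4 members with the largest fitted UV-C folds, of the 4 that fell and of CRK7 are shown so that windows with and without a W box can be read on both sides. They were chosen after their values were seen. Each line is the 250 bases before the annotated gene start in TAIR10.1, 5′ to 3′ on the gene's strand, with each W box (TTGACC or TTGACT, or its reverse complement GGTCAA or AGTCAA) in capitals.
CRK32: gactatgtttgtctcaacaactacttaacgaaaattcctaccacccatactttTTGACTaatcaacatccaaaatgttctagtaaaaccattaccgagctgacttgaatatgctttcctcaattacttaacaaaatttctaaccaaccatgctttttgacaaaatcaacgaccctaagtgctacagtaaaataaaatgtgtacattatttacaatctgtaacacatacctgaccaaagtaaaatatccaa
CRK31: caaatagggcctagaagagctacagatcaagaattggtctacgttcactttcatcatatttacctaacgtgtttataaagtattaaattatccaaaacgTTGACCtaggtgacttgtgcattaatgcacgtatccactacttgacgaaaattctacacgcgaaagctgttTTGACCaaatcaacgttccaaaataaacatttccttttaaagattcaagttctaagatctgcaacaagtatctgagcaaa
CRK36: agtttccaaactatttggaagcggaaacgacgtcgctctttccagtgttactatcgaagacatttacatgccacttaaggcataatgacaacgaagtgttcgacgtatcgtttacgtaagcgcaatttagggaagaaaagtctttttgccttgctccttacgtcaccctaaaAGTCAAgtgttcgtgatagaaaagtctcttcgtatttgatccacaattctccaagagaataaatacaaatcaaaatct
CRK39: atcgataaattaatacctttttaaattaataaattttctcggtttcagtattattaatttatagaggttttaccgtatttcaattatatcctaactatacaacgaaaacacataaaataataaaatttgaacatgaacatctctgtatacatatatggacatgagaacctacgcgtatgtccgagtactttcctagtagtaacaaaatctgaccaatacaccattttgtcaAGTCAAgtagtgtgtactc
CRK7: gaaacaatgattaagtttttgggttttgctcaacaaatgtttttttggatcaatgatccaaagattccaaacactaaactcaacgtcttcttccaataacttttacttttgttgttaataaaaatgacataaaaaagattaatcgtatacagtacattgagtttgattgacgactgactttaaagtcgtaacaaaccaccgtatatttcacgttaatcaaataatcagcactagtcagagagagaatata
CRK42: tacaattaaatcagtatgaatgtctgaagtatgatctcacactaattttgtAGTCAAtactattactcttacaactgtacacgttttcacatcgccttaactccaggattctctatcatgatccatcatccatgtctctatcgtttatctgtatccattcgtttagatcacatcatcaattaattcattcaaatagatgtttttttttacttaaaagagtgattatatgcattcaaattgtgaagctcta
CRK30: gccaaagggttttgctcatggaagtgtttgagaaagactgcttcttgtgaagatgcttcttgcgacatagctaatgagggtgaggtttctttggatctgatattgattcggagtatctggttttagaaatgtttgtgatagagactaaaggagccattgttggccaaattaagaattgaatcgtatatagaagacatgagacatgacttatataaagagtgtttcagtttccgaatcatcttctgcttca
CRK21: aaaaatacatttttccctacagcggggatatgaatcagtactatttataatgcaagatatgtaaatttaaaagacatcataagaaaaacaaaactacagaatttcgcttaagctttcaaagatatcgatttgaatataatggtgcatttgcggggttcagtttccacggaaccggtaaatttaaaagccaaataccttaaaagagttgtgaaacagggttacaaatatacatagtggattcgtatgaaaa
CRK22: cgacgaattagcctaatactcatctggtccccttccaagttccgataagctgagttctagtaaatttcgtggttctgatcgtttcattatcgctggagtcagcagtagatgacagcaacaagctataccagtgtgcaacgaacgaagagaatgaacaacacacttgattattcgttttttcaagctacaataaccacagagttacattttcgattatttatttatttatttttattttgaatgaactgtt
CRK31 has 2 W boxes in this window, and CRK32, CRK36 and CRK39 have 1 each. CRK42, which fell, also has 1, and CRK7, which rose, has 0, as have CRK30, CRK21 and CRK22, which fell. CRK36 and CRK21 lie on the minus strand and the others on the plus strand. Over the family, 24 of 38 windows (63.2%) held a W box, against 28.4% of all 27438 promoters of the same length. The shorter core TTGAC, which lies inside every W box, was in 73.7% of the members' windows and in 44.9% of all. Within 1000 bases 86.8% of members and 67.3% of all promoters held a W box. A match is a run of letters and no measured binding.

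Of the libraries, 29 held 11.23 M to 14.5 M restored estimated counts, and the shallowest, replicate 1 of normal light Δlinda, held 7.42 M. Levels are given in CPM, counts scaled by TMM to a common library size of 1 M, and log2 folds ± SE and adjusted p-values come from edgeR (quasi-likelihood test, p-values of 21100 genes adjusted by Benjamini-Hochberg, threshold 0.05). All samples carry the label whole seedling. The defining root markers CASP1, EXPA7 and COBL9 summed to 22.4 to 45.2 CPM in the 14 mock and Zeocin libraries and to 0 to 0.592 CPM in the 16 normal light and UV-C libraries. Of the 6 root markers these 3 and NRT2:1 were near 0 in the light libraries, while SCR (11.98 to 38.8 CPM) and SHR (8.11 to 13.7 CPM, against 8.34 to 14.7 CPM in mock and Zeocin) were not. Mock and Zeocin libraries are therefore compared with each other first, likewise normal light and UV-C. In such bulk samples fewer cells of a type and less RNA per cell cannot be told apart.

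Family transcripts as a whole were most abundant after UV-C. The summed level of the 38 genes was 655 ± 81.3 CPM (SD, n = 4) in normal light Col-0 and 2924 ± 93.9 CPM (SD, n = 4) after UV-C, a ratio of 4.46. In Δlinda the sum was 606 ± 30.4 CPM (SD, n = 4) in normal light and 2648 ± 195 CPM (SD, n = 4) after UV-C. In both genotypes every UV-C library lay above every normal light library. Between 34 and 36 members reached 1 CPM in each UV-C library, against 23 to 26 in each normal light library. In mock Col-0 the sum was 573 ± 69.4 CPM (SD, n = 4) and after Zeocin 749 ± 96.7 CPM (SD, n = 3), and these groups touch, with a highest mock library of 639.8 CPM and a lowest Zeocin library of 638.5 CPM.

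The leading member changed with the condition. Per kilobase of coding sequence, CRK21 had the highest mean level in normal light Col-0, with 56.1 ± 2.71 CPM per kb (SD, n = 4). After UV-C it was CRK36, with 207 ± 9.33 CPM per kb (SD, n = 4), followed by CRK10 with 136 and CRK11 with 126 CPM per kb. In mock Col-0 the mean of CRK19 was highest at 37.2 ± 11.0 CPM per kb (SD, n = 4), and the next, CRK18 at 32.7 ± 5.38 CPM per kb, lay within that spread. Over all 30 libraries CRK36, CRK18 and CRK19 had the highest mean CPM, CRK36 through the 8 UV-C libraries.

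UV-C in Col-0 raised most of the family. Of 38 members 31 rose, 4 fell and 3 (CRK4, CRK16 and CRK25) were not called, where 68.8% of all 21100 genes were called in either direction. By direction, 34.9% of all genes rose and 33.8% fell, against 81.6% and 10.5% of the members. The median log2 fold was 2.95 over the members and 0.01 over all genes, and 2.67 over the members when the 2 at 0 counts in normal light are set to their bound (given with each below). CRK7, CRK23, CRK33, CRK37, CRK38 and CRK39 passed the filter on low counts only through the UV-C libraries, where they are high. Their rises are among the 31 and in the medians, so part of these counts was given by the filter. The same holds for Δlinda and for the splits by tandem run and W box below. In Δlinda 30 rose and 4 fell, where 68.4% of all genes were called, 35.2% higher and 33.2% lower. The 29 members that rose in both genotypes are 93.5% of those in Col-0 and 96.7% of those in Δlinda, and the same 4 fell in both. The overlap over all genes was not computed, so this one is not read as a trait of the family.

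**Figure D1:**
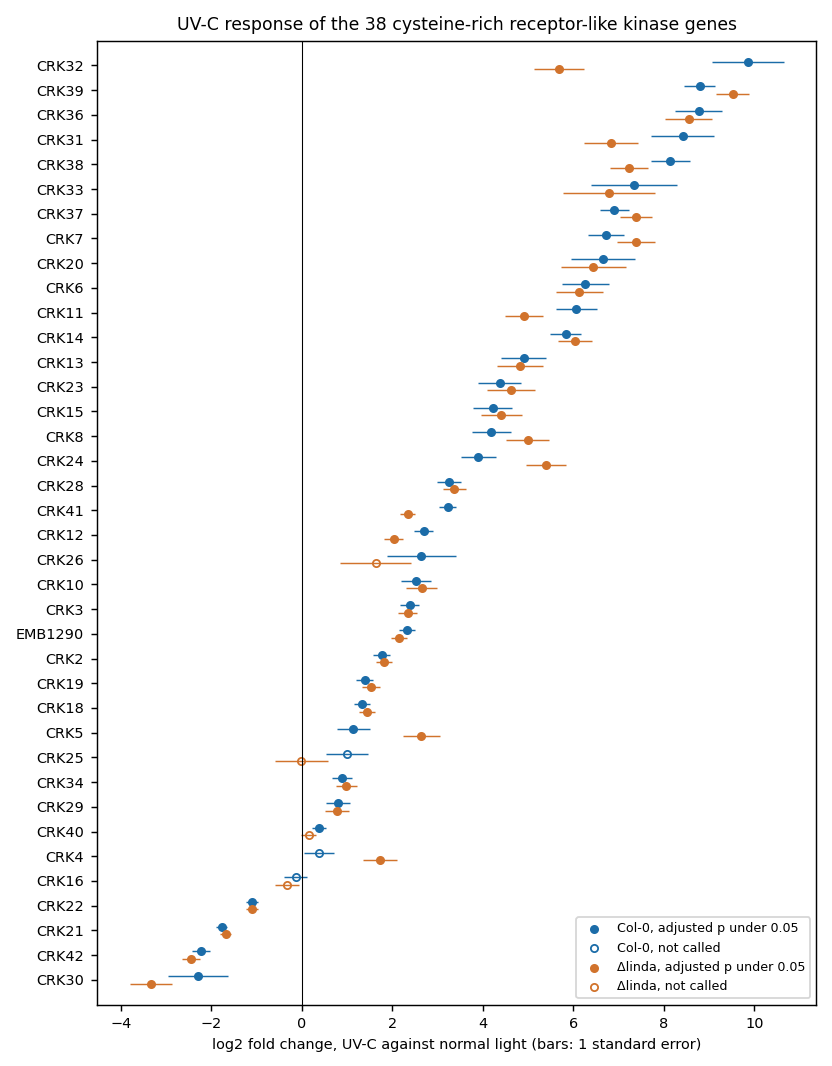
Log2 fold change of each of the 38 members, UV-C against normal light, in Col-0 (blue) and Δlinda (orange), with bars of 1 standard error and filled points for adjusted p under 0.05. Most points lie right of 0 in both genotypes and CRK22, CRK21, CRK42 and CRK30 lie left of it. The fitted folds of CRK32 and CRK33 in Col-0 and of CRK33 in Δlinda rest on normal light libraries at 0 counts and are no bound.

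CRK36, a receptor-like kinase known for interplay with the immune kinase BIK1, reached the highest level. Its 4 normal light Col-0 libraries were at 1.63, 0.404, 0.700 and 0.972 CPM, and its UV-C libraries at 422, 383, 410 and 423 CPM. The lowest UV-C library lay far above the highest control. The log2 fold was 8.77 ± 0.52 (adjusted p = 1.5e-13), and 8.55 ± 0.52 in Δlinda (adjusted p = 2.7e-13).

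CRK39 stood at 0.289, 0, 0 and 0.267 CPM in normal light Col-0 and at 57.0, 65.5, 63.3 and 77.0 CPM after UV-C. The groups are far apart, and the log2 fold was 8.79 ± 0.34 (adjusted p = 2.9e-18). Its close relative CRK40, 86.3% identical in coding sequence, was already at 48.1 CPM in normal light Col-0 and 62.7 CPM after UV-C, a log2 fold of 0.38. CRK39 and CRK40 share reads over an identical coding stretch of 182 bases, so their split rests on the submitters' estimation. Their summed counts rose by a log2 fold of 1.41 ± 0.16 (adjusted p = 7.7e-09). The stretch is shown because it marks where reads of the pair cannot be assigned (5′ to 3′, coding strand, TAIR10.1).
CRK39 and CRK40: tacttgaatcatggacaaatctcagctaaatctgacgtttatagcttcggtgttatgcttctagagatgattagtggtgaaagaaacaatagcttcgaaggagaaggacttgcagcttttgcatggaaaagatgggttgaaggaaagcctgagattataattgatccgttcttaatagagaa

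CRK32 and CRK31 are neighbours on chromosome 4. CRK32 had 0 counts in all 4 normal light Col-0 libraries and 8.18, 7.06, 10.8 and 9.38 CPM after UV-C. Against a floor of 3 counts per library the UV-C mean was at least 31.7-fold higher (edgeR's adjusted p = 1.2e-11). Its place among the largest fitted folds rests on those 0 counts, so its rank is not settled. CRK31 had 1 count in the 4 control libraries together and 13.1, 9.60, 10.2 and 11.9 CPM after UV-C, a ratio of 482 with an exact 95% counting interval of 86.2 to 19100. Both groups of libraries are apart for both genes. Intervals and floors cover counting error only.

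CRK38 and CRK33 were also near 0 in the controls. CRK38 had 3 counts in normal light Col-0 in all, and its UV-C ratio was 322 with an exact 95% counting interval of 110 to 1560. CRK33 had 0 counts there and after UV-C was at least 5.49-fold higher.

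**Figure D2:**
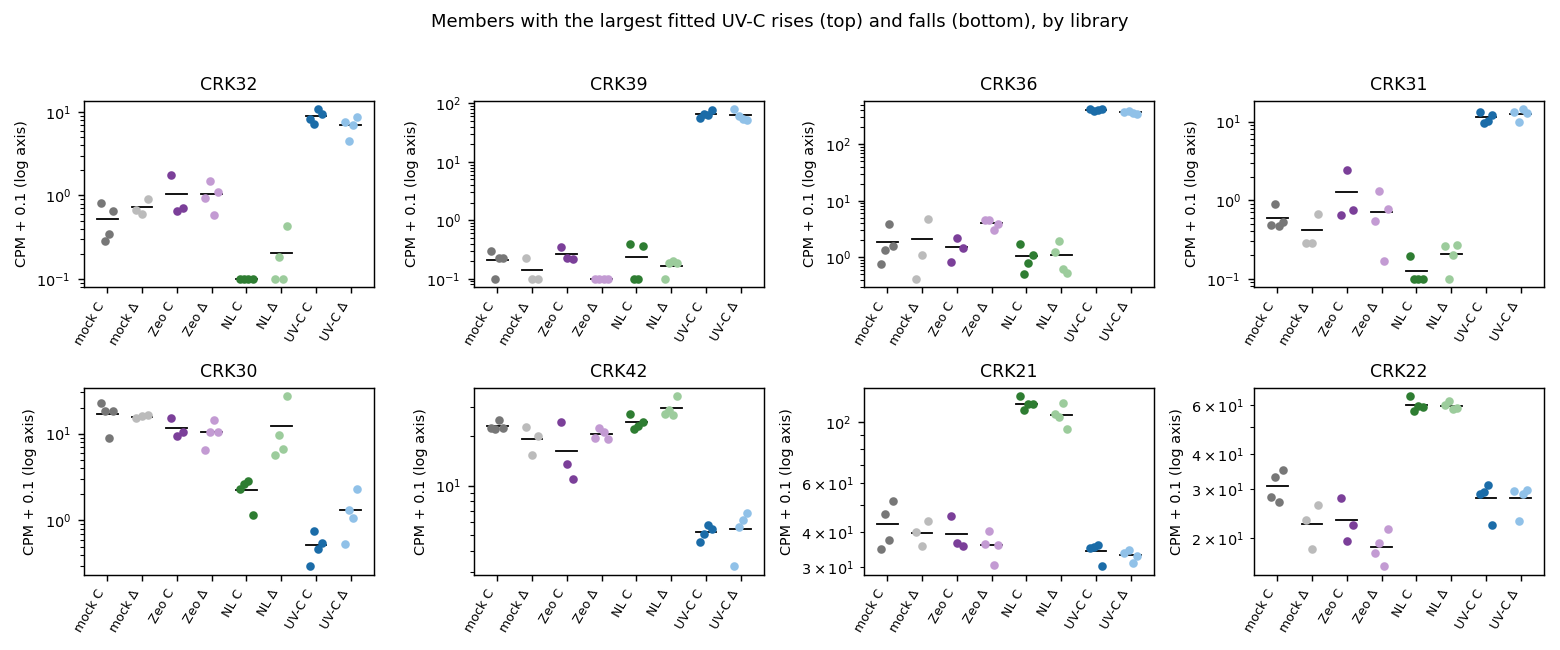
Level of each library (points) and group mean (lines) in CPM plus 0.1 on a log axis for the 4 members with the largest fitted UV-C folds (top) and the 4 that fell (bottom), with C for Col-0, Δ for Δlinda, NL for normal light and Zeo for Zeocin. CRK36 lies between 342 and 423 CPM in the 8 UV-C libraries and below 5 CPM in the other 22.

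The 4 members that fell were CRK21, CRK42, CRK30 and CRK22. CRK21 was at 124, 110, 116 and 116 CPM in normal light Col-0 and at 34.9, 35.3, 35.8 and 30.1 CPM after UV-C. The groups do not overlap, and the log2 fold was -1.77 ± 0.12 (adjusted p = 4.4e-14). CRK42 fell from 24.1 ± 2.23 to 5.12 ± 0.532 CPM (SD, n = 4 each), a log2 fold of -2.23 ± 0.20 (adjusted p = 4.2e-11). CRK30 went from 2.21, 2.52, 2.71 and 1.06 CPM to 0.197, 0.659, 0.372 and 0.456 CPM, a log2 fold of -2.30 ± 0.67 (adjusted p = 0.0037) at low counts. CRK22 fell from 59.8 ± 3.17 to 27.7 ± 3.85 CPM (SD, n = 4 each), a log2 fold of -1.11 ± 0.13 (adjusted p = 7.8e-09). CRK22 shares reads with CRK13, which rose, and the summed counts of the pair rose by 0.42 ± 0.16 (adjusted p = 0.017).

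Within the tandem run 16 of 19 members rose and 2 fell, with a median log2 fold of 3.90, and outside it 15 of 19 rose and 2 fell, with a median of 2.64, or 2.46 with CRK32 and CRK33 at their bounds. CRK21 and CRK22, the pair that fell, stand next to each other between CRK20, which rose by 6.66 ± 0.71, and CRK23, which rose by 4.37. In normal light Col-0 CRK20 held 2, 0, 1 and 1 counts and CRK23 4, 2, 5 and 9, so both folds rest on few counts. CRK7 rose by 6.72 ± 0.40, CRK6 by 6.26 ± 0.52 and CRK11 by 6.07 ± 0.46. CRK6 and CRK7 share reads with CRK8, CRK10, EP1 and a transposable element, and the summed counts of that set rose by 3.16 ± 0.30 (adjusted p = 5.5e-10). CRK5, known for a part in cell death and leaf ageing, rose by 1.14 ± 0.37. CRK2, known for control of the oxidase RBOHD, lies on chromosome 1 and rose by 1.76 ± 0.18. CRK28 rose by 3.25 ± 0.26 and its neighbour CRK29 by 0.80 ± 0.27. The summed counts of this pair rose by 2.36 ± 0.23 (adjusted p = 3e-10). The genes, 85.6% identical, share reads, and a 79-base stretch identical in both is printed for that reason (5′ to 3′, coding strand, TAIR10.1).
CRK28 and CRK29: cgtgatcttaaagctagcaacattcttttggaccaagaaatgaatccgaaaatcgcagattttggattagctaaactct

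**Figure D3:**
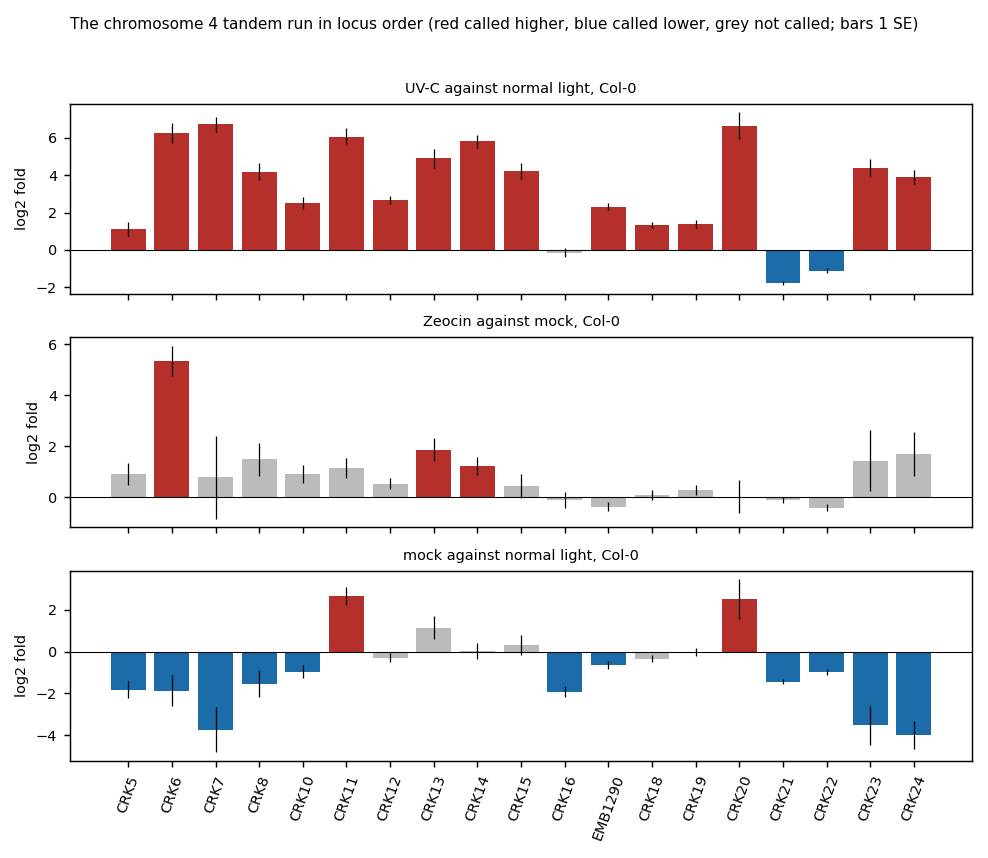
Log2 fold in Col-0 of the 19 tandem members in locus order for UV-C against normal light, Zeocin against mock and mock against normal light, with bars of 1 standard error and colour for calls at adjusted p under 0.05. CRK21 and CRK22 are the blue pair in the UV-C panel, and CRK6 is the tallest bar in the Zeocin panel.

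The UV-C folds can be set beside the promoters as a description. Of 24 members with a W box within 250 bases 20 rose and 1 fell, with a median log2 fold of 4.21 in Col-0. Of 14 without one 11 rose and 3 fell, with a median of 2.45, or 2.42 with CRK33 at its bound. Both counts of rises lie near the 81.6% of all members that rose. The sets overlap: CRK42 has a W box and fell by 2.23, and CRK7 has none in that window and rose by 6.72. CRK7 holds 1 core TTGAC there and 1 W box within 1000 bases. In normal light Col-0 it held 9, 3, 1 and 10 counts, so its fold rests on few counts. CRK21, CRK22, CRK30, CRK33 and CRK40 had 0 W boxes within 1000 bases, and 3 of these 5 fell. The same counts over all genes with and without a W box were not computed, so no link is read from them.

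Genes of related lists are given for the same UV-C comparison in Col-0, each with its own count, to be read against the 34.9% of all genes that rose and the 33.8% that fell. Of 8 WRKY genes whose products bind W boxes 7 rose, led by WRKY40 (9.79 ± 0.76), WRKY75 (9.69 ± 0.43) and WRKY53 (6.96 ± 0.35), with a median of 5.94. Of 10 genes of the pattern receptor complex and its oxidase 9 rose, led by BIK1 (3.81 ± 0.21), SERK4 (3.30 ± 0.16) and SOBIR1 (3.01 ± 0.28), and the flagellin receptor gene FLS2 had -0.59 ± 0.29 (adjusted p = 0.075). All 7 tested genes of 8 salicylic acid regulators and markers rose, led by EDS16 (3.99 ± 0.16), the isochorismate synthase gene. Of 8 plasmodesmata-located proteins, which carry DUF26 without a kinase, 3 (37.5%) rose and 2 (25%) fell, shares near those of all genes, with HWI1 at 2.77 ± 0.26 and PDLP3 at -2.35 ± 0.21. All 5 tested of 8 further CRK-type loci rose, with ARCK1 at 7.45 ± 0.51. The median of all genes in that comparison was 0.01.

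Markers of cell types moved in this comparison as well. The 3 tested leaf photosynthesis markers of 5 fell, by 0.72 to 1.81, from a sum of 44515 to 50549 CPM in normal light Col-0 to 21711 to 24975 CPM after UV-C. Both guard cell markers fell, MYB60 by 1.89 and FMA by 0.93, from a sum of 28.9 to 36.2 CPM to 10.3 to 16.2 CPM. Of 6 root markers 3 fell, with a sum of 41.2 to 51.8 CPM in normal light Col-0 and 26.5 to 30.5 CPM after UV-C, and of 3 phloem markers 1 rose and 1 fell. Their part in the members' changes was not tested.

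Zeocin raised few members past the threshold. In Col-0 5 of 38 (13.2%) rose and 0 fell, where 5.34% of all genes were called, 4.1% higher and 1.23% lower. The median log2 fold was 0.55 over the members and 0.00 over all genes. At an unadjusted p under 0.05 stood 16 members (42.1%), against 16% of all genes, and 27 of 38 folds were positive. The 5 were CRK6, CRK13, CRK14, CRK3 and CRK41. All 5 also rose after UV-C in Col-0, as did 81.6% of all members, and the overlap over all genes was not computed. In Δlinda 2 of 38 rose, CRK6 and CRK41, where 2.88% of all genes were called, 2.43% higher and 0.455% lower, and the members' median was 0.12. There 5 members (13.2%) had an unadjusted p under 0.05, against 11.9% of all genes.

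CRK6, known with CRK7 for a part in the response to extracellular reactive oxygen, had the largest Zeocin fold. Mock Col-0 libraries were at 0.557, 0.615, 0.671 and 0.412 CPM and Zeocin Col-0 libraries at 13.1, 33.3 and 25.5 CPM. The groups do not overlap, and the log2 fold was 5.35 ± 0.60 (adjusted p = 5.7e-07). In Δlinda mock libraries were at 1.42, 0.375 and 1.26 CPM and Zeocin libraries at 4.99, 10.2, 4.14 and 16.3 CPM, a log2 fold of 3.11 ± 0.61 (adjusted p = 0.0025). The difference of the responses, the interaction, was -2.24 ± 0.97 and was not called (adjusted p = 1.0). CRK6 shares 31.7% of its 31-base words with other genes, CRK8 foremost. Summed over CRK6, CRK7, CRK8, CRK10, EP1 and a transposable element that share reads, the Zeocin fold was 1.43 ± 0.30 in Col-0 (adjusted p = 0.0032) and 0.76 ± 0.31 in Δlinda (adjusted p = 0.28).

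CRK13, known for cell death and salicylic acid buildup when overexpressed, was at 6.39, 4.14, 1.05 and 4.67 CPM in mock Col-0 and at 19.2, 4.13 and 21.1 CPM after Zeocin. One Zeocin library, replicate 2, lies among the mock libraries. Its decimal mark was read first as 675.98 counts and then placed at 67.598, the place at which the sum with CRK22 is whole, and the overlap and the folds of CRK13 rest on that place. The log2 fold was 1.87 ± 0.45 (adjusted p = 0.012), and 1.54 without Zeocin Col-0 replicate 3 (adjusted p = 0.10). Summed with CRK22, with which CRK13 shares reads, it was 0.13 ± 0.17 (adjusted p = 0.79). CRK22 is the larger part of the sum and was at 27.84, 33.05, 26.76 and 34.81 CPM in mock Col-0. After Zeocin CRK22 was at 27.68, 19.39 and 22.08 CPM, so a lower mean of CRK22 also enters the flat sum. Whether reads were assigned from CRK22 to CRK13 was not tested. CRK14 rose by 1.22 ± 0.35 (adjusted p = 0.037), with 7.78, 11.2 and 5.64 CPM after Zeocin against 4.01, 4.21, 2.68 and 3.16 CPM in mock. The call of CRK14 was lost without any of the 4 mock libraries and without Zeocin Col-0 replicate 1 or 2, with adjusted p from 0.052 to 0.26. CRK3, which is not in the tandem run, rose by 0.91 ± 0.21 (adjusted p = 0.0058), and by 0.77 without Zeocin Col-0 replicate 2 (adjusted p = 0.065). CRK41 rose by 0.56 ± 0.17 (adjusted p = 0.047), with 26.3, 35.6 and 18.5 CPM after Zeocin against 20.2, 20.6, 16.2 and 15.5 CPM in mock, so the groups overlap. Its call was lost without Zeocin Col-0 replicate 1 or 2 or without mock Col-0 replicate 1, 3 or 4, with adjusted p from 0.053 to 0.50, and the log2 fold was 0.32 without Zeocin Col-0 replicate 2. The CRK41 call was also lost with a replicate block (adjusted p = 0.065), decimals placed without groups (0.051), unclear genes kept (0.06) and only the groups compared (0.25). With only the groups compared CRK13 (0.22) and CRK3 (0.051) were not called, nor was CRK14 without the filter on low counts (0.077). CRK41 in Δlinda was at 14.6, 13.6 and 20.8 CPM in mock and at 30.1, 32.1, 25.5 and 27.1 CPM after Zeocin, a log2 fold of 0.81 ± 0.18 (adjusted p = 0.0041), and 0.70 without mock Δlinda replicate 2 (adjusted p = 0.063).

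**Figure D4:**
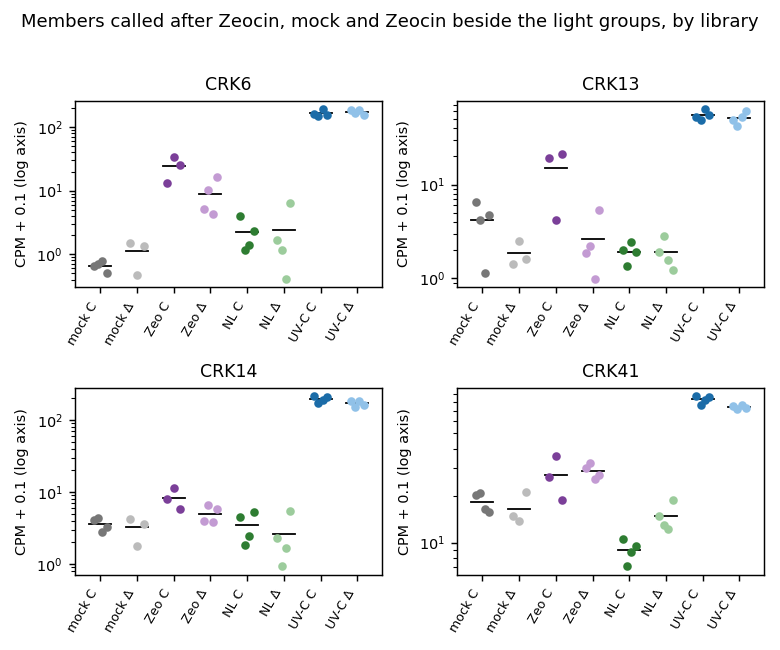
Level of each library (points) and group mean (lines) in CPM plus 0.1 on a log axis for CRK6, CRK13, CRK14 and CRK41 in all 8 groups, labelled as in the plot of UV-C members. CRK6 after Zeocin lies above every mock library of its genotype and below every UV-C library.

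Between the genotypes few members were called. In mock and after UV-C 0 of 38 members were called between Δlinda and Col-0 by edgeR and by DESeq2, where 0.0142% and 0.019% of all genes were called. At an unadjusted p under 0.05 stood 3 members in mock (7.89%, against 3.63% of all genes) and 2 after UV-C (5.26%, against 6.95%). For both interactions 0 of 38 were called by either tool, where 0.0332% of all genes were called for Zeocin and 0.0142% for UV-C. At an unadjusted p under 0.05 stood 6 members (15.8%) for each, against 3.68% of all genes for Zeocin and 7.45% for UV-C.

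After Zeocin the summed family was at 540.5 ± 90.03 CPM (SD, n = 4) in Δlinda and 749 ± 96.7 CPM (SD, n = 3) in Col-0, a ratio of 0.722, and the groups touch. Of the 38 members 14 (36.8%) had an unadjusted p under 0.05, against 13.0% of all genes, and the median log2 fold was -0.28, against 0.01 over all genes. After adjustment 1 member, CRK13, was lower in Δlinda, where 0.209% of all genes were called and 0.18% were lower. Zeocin Δlinda libraries were at 1.77, 2.14, 0.890 and 5.31 CPM against 19.2, 4.13 and 21.1 CPM in Col-0, so the groups overlap. The log2 fold was -2.55 ± 0.48 (adjusted p = 0.024), and it was not called without Zeocin Col-0 replicate 3 (adjusted p = 0.30), nor without Zeocin Δlinda replicate 1 (0.13), 2 (0.057) or 3 (0.12). CRK13 summed with CRK22 fell by 0.85 ± 0.17 (adjusted p = 0.026), and CRK28 summed with CRK29 fell by 1.08 ± 0.22 (adjusted p = 0.034). Singly CRK28 had -1.15 (adjusted p = 0.056). Without Zeocin Col-0 replicate 1 the count of members called was 9, given without the share of all genes called in that fit. In the pattern receptor list 2 of 10 genes (20%) were lower in Δlinda after Zeocin and 0 higher. FLS2 had -1.62 ± 0.31 (adjusted p = 0.025), with 9.85, 12.8, 6.32 and 17.6 CPM against 25.3, 29.2 and 52.7 CPM in Col-0. EFR, the receptor of a bacterial elongation factor peptide, had -0.95 ± 0.21 (adjusted p = 0.049). Its libraries were at 6.06, 7.89, 6.32 and 9.19 CPM against 8.45, 14.7 and 19.6 CPM, so the groups overlap. Both genes were highest in Zeocin Col-0 replicate 3, and no fit without it is given for them.

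In normal light 9 members (23.7%) had an unadjusted p under 0.05, against 8.89% of all genes, and 1 member, CRK30, was called, higher in Δlinda, where 0.147% of all genes were called and 0.0616% were higher. Δlinda libraries were at 5.54, 9.68, 6.54 and 26.9 CPM against 2.21, 2.52, 2.71 and 1.06 CPM in Col-0. The groups do not overlap, although 1 Δlinda library stands well above the others. The log2 fold was 2.55 ± 0.44 (adjusted p = 0.0096), and 1.79 without that library, normal light Δlinda replicate 4 (adjusted p = 0.075), or 2.32 without normal light Col-0 replicate 4 (adjusted p = 0.078).

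Mock and normal light seedlings, the untreated controls of the 2 treatments, differed for members about as often as for other genes. In Col-0 11 of 38 (28.9%) were higher and 13 (34.2%) lower in mock, where 55.2% of all genes were called, 28.7% higher and 26.5% lower. In Δlinda 8 (21.1%) were higher and 10 (26.3%) lower, where 46.8% of all genes were called, 24.5% higher and 22.3% lower. Within the family the tandem run and the rest went apart in Col-0, and less so in Δlinda. In Col-0 2 of 19 tandem members were higher and 11 (57.9%) lower, and outside the run 9 of 19 (47.4%) were higher and 2 lower. In Δlinda 1 tandem member was higher and 6 (31.6%) lower, and outside it 7 (36.8%) were higher and 4 lower. There the share of tandem members lower and of the others higher lay nearer those of all genes. Some tandem members share reads, so their calls are not separate. With library totals in place of TMM the summed family was at 667.9 CPM in mock Col-0 and 534.5 CPM in normal light Col-0, against 572.6 and 655.4 CPM with TMM, so the direction of small differences between these groups depends on the scaling. By the labels mock seedlings stood in liquid medium, and no such step is given for normal light, and this cannot be told apart from other differences between the groups. Cell type markers differed too. The 3 tested leaf photosynthesis markers of 5 were lower in mock in both genotypes, by 0.80 to 2.04 in Col-0, with a sum of 19647 to 23743 CPM in mock Col-0 and 44515 to 50549 CPM in normal light Col-0. Of 3 phloem markers 2 were lower in mock in both genotypes, with a sum of 139 to 174 CPM against 219 to 286 CPM in Col-0, and of 2 guard cell markers 1 was lower in Col-0 and 2 in Δlinda. The part of these markers in the members' differences was not tested.

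CRK25 had the clearest rise in mock. It was at 9.41, 11.6, 12.3 and 10.8 CPM in mock Col-0 and at 0.197, 0.104, 0.612 and 0.353 CPM in normal light Col-0, a log2 fold of 5.05 ± 0.33 (adjusted p = 2.3e-13). In Δlinda the log2 fold was 5.74 ± 0.36 (adjusted p = 1.9e-13). The groups are far apart in both genotypes. CRK25 shares reads with its neighbour ATK5, a kinesin gene, and their summed counts rose by 1.00 ± 0.19 in Col-0 (adjusted p = 3.2e-05). CRK26 was at 2.68 ± 0.529 CPM (SD, n = 4) in mock Col-0 and 0.141 ± 0.122 CPM (SD, n = 4) in normal light Col-0, a log2 fold of 4.17 ± 0.66. CRK30 was higher in mock by 2.99 ± 0.43 in Col-0 (adjusted p = 1.6e-06), and in Δlinda it had 0.33 ± 0.39 (adjusted p = 0.52). The summed 6 root markers were at 90.4 to 112 CPM in mock Col-0 and 41.2 to 51.8 CPM in normal light Col-0, 5 of 6 called higher, and their part in these rises was not tested.

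CRK4, on chromosome 3, went the other way. It was at 0.0647, 0.742, 0.732 and 0.371 CPM in mock Col-0 and at 33.8, 21.3, 20.8 and 34.4 CPM in normal light Col-0, a log2 fold of -5.81 ± 0.50 (adjusted p = 3.7e-10). In Δlinda the log2 fold was -4.22 ± 0.58 (adjusted p = 1e-06). CRK4 was at 35.9 CPM after UV-C in Col-0, with a UV-C log2 fold of 0.38 that was not called. In Δlinda it rose after UV-C from 10.6 to 34.1 CPM, a log2 fold of 1.73 ± 0.37 (adjusted p = 0.00018). CRK32, at 0 counts in normal light Col-0, was at least 1.52-fold higher in mock. CRK38 was called lower in mock Δlinda (adjusted p = 0.026), but its libraries were at 0 counts in mock and at 0, 0.334, 0 and 0.0835 CPM in normal light, so no fold is given. All 7 tested salicylic acid genes were lower in mock Col-0, with a median of -1.11, where 26.5% of all genes were lower. In Δlinda 2 of 7 (28.6%) were lower, with a median of -0.75, where 22.3% of all genes were.

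**Figure D5:**
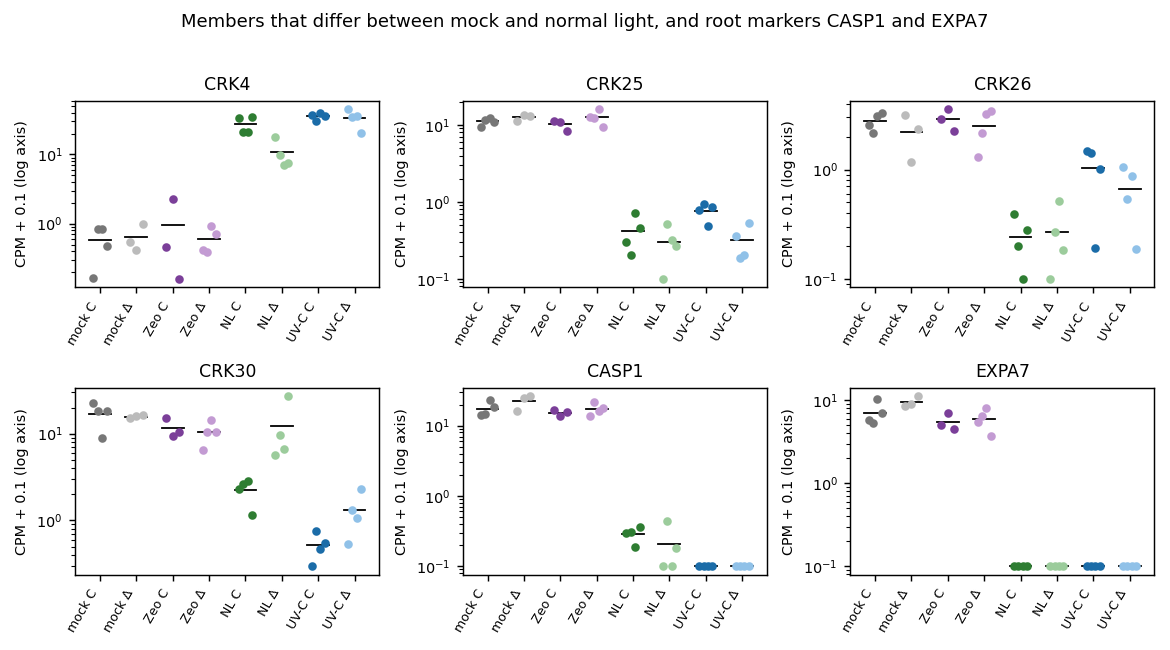
Level of each library (points) and group mean (lines) in CPM plus 0.1 on a log axis for CRK4, CRK25, CRK26 and CRK30 and for the root markers CASP1 and EXPA7, labelled as in the plot of UV-C members. CRK25 lies above 8 CPM in the 14 mock and Zeocin libraries and below 1 CPM in the other 16, and EXPA7 is at 0 in those 16.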

How the data were processed

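Whole seedlings gave 30 libraries in 8 groups by sample title. Per the submitters' processing notes, the tools were FastQC 0.72, Trimmomatic 0.38.0 and Salmon 0.14.1.2. The sources used here give neither genome build nor annotation. The deposited table holds estimated counts (expected counts) per gene, not normalised, in which values that were not whole have lost their decimal mark, as read from the values. The mark was put back by likelihood over replicates and groups: 14.67% of 723692 entries above 0 received decimals, and 3207 genes of unclear placement were left out. For 5 members it was settled by the sums of genes that share reads, which are whole within 0.005 counts in every library checked. The restored values, as whole numbers, entered edgeR 4.0.16 under R 4.3.3 (filterByExpr count 10, total 15; TMM; robust quasi-likelihood F test; 1 fit over 30 libraries; 12 comparisons), and SE is the absolute log2 fold over the square root of F. Nothing states that libraries came from separate cultures, so p-values measure only the spread between samples. On data simulated for Zeocin against mock in Col-0 with 20722 genes tested, 42 of 49 genes raised 2-fold and 50 of 50 raised 4-fold were called, 10 of 20524 unchanged genes were called, and 6 kept genes held a wrong entry. The simulated decimals had the places and ending frequencies that the restoration found or assumes, so real placements may be harder.

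Earlier results of these data were known when the members and gene lists were chosen. The members were listed by family identifier and not picked by their values, but the choice of family was not blind to those results. Members named by rule are the 4 largest called rises and 4 falls for UV-C in Col-0, the 3 largest called folds in each other comparison, and the 3 highest mean levels. From other lists the rule names the largest called UV-C folds in Col-0. Further genes were added outside these rules with their values known, such as CRK2, CRK5, CRK7, CRK11, CRK20, CRK23, CRK26, CRK28, CRK29, CRK33, FLS2 and EFR. Alternatives were DESeq2 1.42.0, other scaling, no filter, fewer groups, a replicate block, other decimal readings, summed counts of 7 sets that share reads, and leaving out each library. Promoters, coding sequences and symbols come from RefSeq TAIR10.1 by locus identifier. The sources state no strand setting, so reads of overlapping genes cannot be told apart. A root marker of the chosen list is not reported here.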

Additional observations from a re-analysis of the deposited data

Results flagged for a closer look

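Among 104 groups of 4 libraries examined for named members and the family total, 5 held a library far from the other 3, about the number chance gives at 1 in 20. CRK31 in mock Col-0 replicate 2 was 0.804 CPM, where the others lay between 0.366 and 0.433 CPM. In normal light Col-0 replicate 1 it was 0.0960 CPM, a single count, with the others at 0. CRK42 in mock Col-0 replicate 3 was 24.8 CPM, with the others between 21.8 and 22.2 CPM. CRK21 in UV-C Col-0 replicate 4 was 30.1 CPM, with the others between 34.9 and 35.8 CPM. CRK22 in UV-C Δlinda replicate 2 was 22.9 CPM, with the others between 28.6 and 29.7 CPM.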

How the results depend on the processing

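Of 21 named log2 folds under 299 alternatives, 273 kept their direction and side of the threshold, 24 kept the direction without the call and 2 turned: with summed counts of genes that share reads, CRK22 after UV-C in Col-0 was 0.42 and CRK38 in mock against normal light Δlinda 0.87, where the summed partners CRK13 and CRK36 hold other changes. Reading decimals without the groups left 22 of 38 members out as unclear and read 44 of their 1140 entries differently; of the 16 tested, 16 and 14 were called after UV-C in Col-0 and Δlinda, 1 and 1 after Zeocin, 0 and 0 between genotypes after Zeocin and in normal light, and 8 and 7 between mock and normal light. With only the groups compared in the fit, 2 members were called for Zeocin in Col-0 and 0 for genotype after Zeocin and in normal light. DESeq2 called 5 members for genotype after Zeocin and 2 in normal light. Counts of members under alternatives, here and below, stand without the share of all genes called in the same fit. They are therefore not read as changes of the family alone. Deviations of same-numbered libraries had correlations from -0.393 to 0.179, with 3 or 4 such pairs per pair of groups. For normal light with UV-C, the lowest Col-0 value, 0.0394, lay above the mean of differently numbered pairs, -0.0227. The Δlinda values lay on both sides of that mean, there -0.0322. For mock with Zeocin, the highest values lay below it, in Col-0 (0.0141 against 0.0654) as for Δlinda (0.0134 against 0.0287). So few pairs cannot decide whether same-numbered libraries share more than a number. With the replicate block 2 members were called for genotype after Zeocin, and 35 for UV-C in Col-0 as without it.

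Leaving out 1 library gave 2 to 8 members for Zeocin in Col-0 (8 without Zeocin Col-0 replicate 1, 2 without replicate 2, 3 without mock Col-0 replicate 3), 1 to 3 for Zeocin in Δlinda, 34 to 35 for UV-C in Col-0, 34 in Δlinda, 0 to 9 for genotype after Zeocin, 0 to 2 in normal light, 20 to 24 and 14 to 19 for mock against normal light. The log2 ratio of the family total for Zeocin in Δlinda, 0.03, ran from -0.08 to 0.15 and was -0.07 without Zeocin Δlinda replicate 2, -0.01 without replicate 4 and -0.08 without mock Δlinda replicate 2. Library totals without TMM, chosen after seeing the data, moved the family total by more than the SD between replicates in 7 of 8 groups: to 667.9 CPM in mock Col-0, 622.1 in mock Δlinda, 882.6 in Zeocin Col-0, 534.5 in normal light Col-0, 516.5 in normal light Δlinda, 2679 in UV-C Col-0 and 2423 in UV-C Δlinda. The log2 ratio for UV-C went from 2.16 to 2.33 in Col-0 and from 2.13 to 2.23 in Δlinda, and mock came to lie above normal light instead of below. RLE scaling shifted the median of all genes by at most 0.05. Members with few counts limit what can be read.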
